A study of Mus musculus with 6 samples.

Results

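Of the 15302 genes named on these arrays, 9 that encode hedgehog pathway components and Gli transcription factors are described here, chosen by name as parts of the pathway, with earlier results of these data known. They are the ligand gene Shh, the receptor genes Ptch1, Boc and Cdon, the transducer gene Smo, the ligand-binding antagonist gene Hhip and the effector genes Gli1, Gli2 and Gli3. All 9 were measured, each by 1 probe set whose values no other probe set shares. Expression was measured on 6 arrays, 1 per sample, in mouse neural progenitor cells made from embryonic stem (ES) cells. All cells carried GFP in the Sox1 locus, and 3 samples also carried a Sox3 transgene driven by the Nestin promoter (genotype Sox1-GFP and Nestin-Sox3), whereas the 3 control samples did not (genotype Sox1-GFP). Both groups grew as monolayers with B27 and N2 supplement, received 0.5 µM all-trans retinoic acid on days 0 and 2, and were trypsinised and sorted by FACS on day 4. The transgene is expected only in cells in which the Nestin promoter is active, and the labels leave unsaid how many ES cell clones stand behind each genotype.

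In hedgehog signalling, a secreted ligand such as Shh binds Ptch1, which otherwise keeps the membrane protein Smo inactive. Released Smo acts at the primary cilium to turn Gli proteins from repressors into activators, with Gli2 the main activator and Gli3 the main repressor in the mouse neural tube. Ptch1, Gli1 and Hhip are themselves targets of the pathway, so that their RNA is widely used as a readout of its activity, while Boc and Cdon are co-receptors whose genes are lowered by it. In the neural tube, Shh from the notochord and floor plate sets the ventral progenitor domains.

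The start sites of Gli2 and Gli3 are shown first, because Gli2 passed the test in the comparison that follows and Gli3, its counterpart, did not. RefSeq promoter entries (build GRCm38.p6) were matched by symbol for 6 of the 9 genes: Ptch1, Smo, Gli2, Gli3, Hhip and Cdon. The lines give the 250 bases before the annotated start, 5′ to 3′ on the gene's strand. The Gli2 window is chr1:119053620-119053869 on the minus strand and the Gli3 window chr13:15463473-15463722 on the plus strand.
Gli2: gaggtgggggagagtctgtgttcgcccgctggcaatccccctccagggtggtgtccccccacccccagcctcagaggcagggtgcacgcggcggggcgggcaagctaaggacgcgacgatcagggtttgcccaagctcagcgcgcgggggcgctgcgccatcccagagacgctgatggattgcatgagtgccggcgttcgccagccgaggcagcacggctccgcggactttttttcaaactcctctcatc
Gli3: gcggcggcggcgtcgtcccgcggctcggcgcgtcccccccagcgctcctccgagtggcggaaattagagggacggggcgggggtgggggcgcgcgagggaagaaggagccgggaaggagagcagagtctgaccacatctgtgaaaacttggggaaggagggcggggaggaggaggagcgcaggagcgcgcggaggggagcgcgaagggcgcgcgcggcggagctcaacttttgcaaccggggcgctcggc
The windows were searched on both strands for the Gli consensus GACCACCCA, for the Sox sequence AACAATG and for ACAAT, which lies within AACAATG. Capitals would mark a match, and there are 0 in these lines and in the windows of the other 4 genes. The annotated starts behind the Ptch1 and Cdon windows lie 7725 and 30548 bases from the 5′ end of the gene in the RefSeq gene table, so those windows may not be the starts used in these cells. That of Gli2 lies 786 bases from it and that of Gli3 at it. Among the 32851 promoter windows of the same length in the table, 0.225% held the Gli consensus, 3.29% the longer Sox sequence and 27.7% ACAAT. G and C made up 67.2% of the Gli2 window and 72.8% of the Gli3 window, against a median of 52.4% over all windows. The 0 matches cover these windows alone and say nothing about binding elsewhere at the genes.

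Sox3 itself was at log2 signals of 9.20, 9.23 and 9.22 with the transgene and 7.59, 7.52 and 7.25 in control cells, so the targeted gene was higher where the labels say so, if its probes read the transgene. Control replicate 3 lay apart from the other arrays, with a score of 22.4 on the first principal component, where the other controls scored 4.78 and 6.06 and the Sox3 arrays -15.2 to -7.91. Mean signals of the 9 measured neural progenitor markers ran from percentile 19.0 of all genes (Hes5) to 98.3 (Vim). Among them, Sox1, whose locus carries GFP, lay at 46.8 and Nes, the Nestin gene, at 63.6. The 6 measured pluripotency markers ran from 61.4 (Klf4) to 99.8 (Dppa5a). Signals of different probe sets do not rank transcripts by abundance, so these percentiles only place a gene on the scale of the array. No detection call came with the values.

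Of the 9 genes, Gli2 alone passed the test for a difference between Sox3 and control cells, and it was lower with Sox3. That is 1 of 9 called lower and 0 of 9 called higher, where 2.67% of all genes were called lower and 1.27% higher (limma, adjusted p under 0.05). The Sox3 arrays lay below all control arrays for 4 of the 9 genes, Gli2, Gli1, Cdon and Boc, a pattern found in 18.3% of all genes. None of the 9 had all Sox3 arrays above all control arrays, which 13.1% of genes had. Before adjustment, limma's p was under 0.05 for 3 of the 9 (Gli2, Cdon and Gli1) and for 23.8% of all genes. The median log2 difference of the 9 genes was -0.03, beside 0.00 over all genes. As these are bulk samples, fewer cells of a type and less RNA per cell cannot be told apart in any of these differences.

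**Figure D1:**
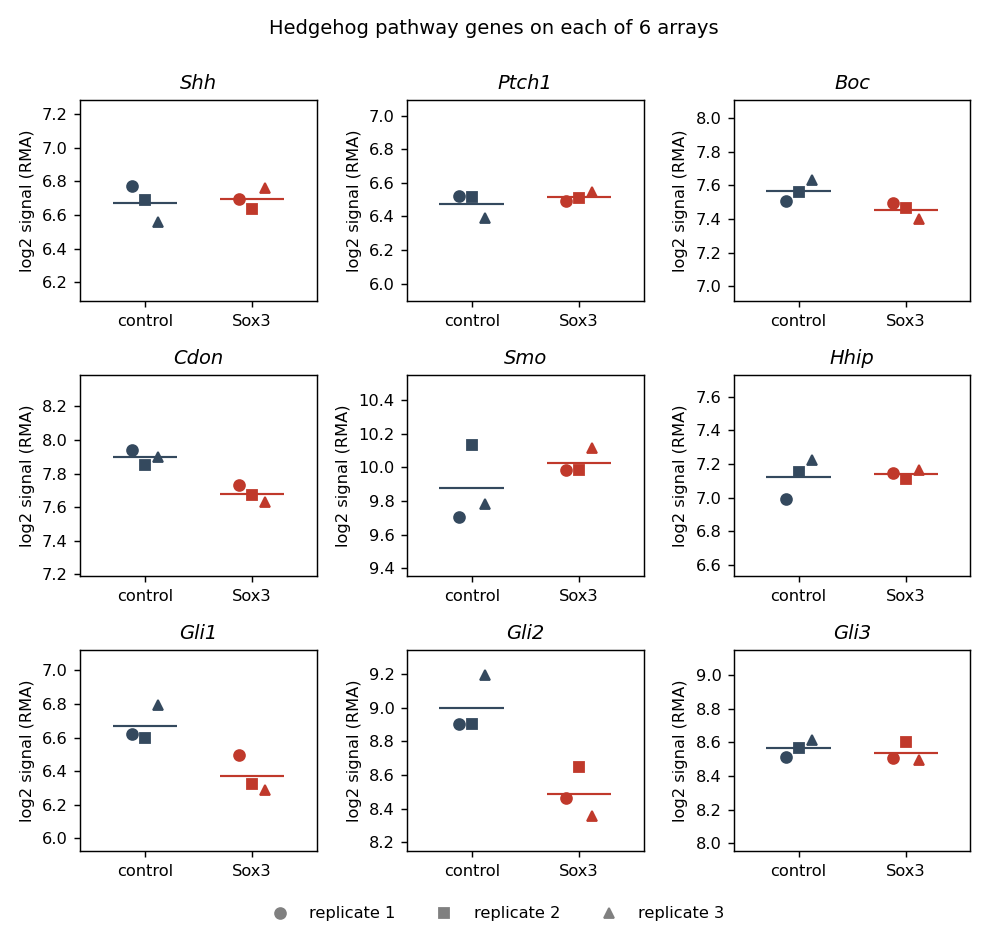
Log2 signal (RMA) of the 9 genes on each of the 6 arrays. Points are arrays with replicates 1 to 3 by shape, horizontal lines are group means, and every panel spans the same range of log2 units around its own centre. The groups are apart for Gli2 (8.35 to 8.65 with Sox3, 8.90 to 9.19 in control cells), Gli1 and Cdon, touch closely for Boc and overlap for the other 5 genes.

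Among the effectors, Gli2, the main activator of the pathway in the neural tube, gave log2 signals of 8.46, 8.65 and 8.35 on the Sox3 arrays and 8.90, 8.90 and 9.19 on the control arrays. All Sox3 arrays were below all control arrays, and the highest control value was that of replicate 3. The mean was 8.49 ± 0.15 against 9.0 ± 0.17 (SD, n = 3 each), which is 1.42-fold lower (-0.51 ± 0.10 SE on the log2 scale, limma adjusted p = 0.037). Genes in the same decile of signal had a median difference of -0.07. The Gli2 call was lost when any 1 of the 6 arrays was left out, with limma adjusted p from 0.057 to 0.128 and differences from -0.59 to -0.41. Without control replicate 3 the difference was -0.41 (limma adjusted p = 0.057). The smallest estimate over all alternatives was -0.38, with array weights, where the call held (limma adjusted p = 0.020).

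Gli1, an activator whose transcription depends on the pathway, was at 6.50, 6.33 and 6.29 with Sox3 and at 6.62, 6.60 and 6.80 in control cells. The groups did not overlap, but their nearest arrays, at 6.50 and 6.60, were closer than some replicates of 1 group. The log2 difference was -0.30 ± 0.08 (SE) and did not pass the threshold (limma adjusted p = 0.072). It was called only with array weights (-0.26, limma adjusted p = 0.022). Over the alternatives its adjusted p ran from 0.022 to 0.185, and without control replicate 3 the difference was -0.24.

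Gli3, the main repressor, was at 8.51, 8.60 and 8.49 with Sox3 and at 8.52, 8.57 and 8.62 in control cells. The groups overlapped, and the log2 difference was -0.03 ± 0.05 (SE, limma adjusted p = 0.73). Its 95% interval on the fold scale, 0.898 to 1.06, does not reach the estimated fall of Gli2, on the scale of these values. The difference turned to 0.02 after quantile normalisation and to 0.03 under cyclic loess.

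Since Gli2 and Gli3 are read on the same arrays, their signals were also compared within each array. This describes whether they changed unequally and not their relative abundance. It reuses the values behind the single-gene differences and is no separate evidence. Gli2 minus Gli3 was -0.04, 0.05 and -0.14 on the Sox3 arrays and 0.39, 0.33 and 0.58 on the control arrays. The shift between the groups was -0.48 on the log2 scale, with no overlap. An exact permutation test (two-sided) gave p = 0.10, the smallest that 3 arrays against 3 allow, and p = 0.15 after adjustment over the 3 pairs of Gli genes. Gli1 minus Gli3 shifted by -0.27 with the same exact p and adjusted p. Gli1 minus Gli2 shifted by 0.21 with overlapping groups (exact permutation p = 0.30, adjusted p = 0.30). These tests could not pass 0.05 at this number of arrays.

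**Figure D2:**
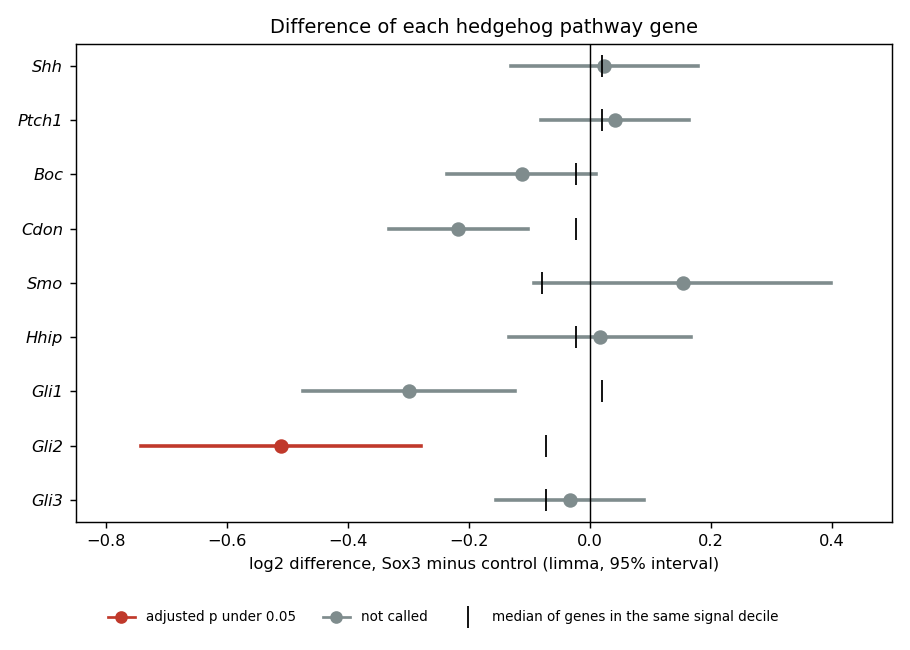
Log2 difference, Sox3 minus control, of each of the 9 genes with limma's 95% interval. The black ticks mark the median difference of all genes in the same decile of mean signal. The intervals of Gli2, Gli1 and Cdon lie wholly below 0, and Gli2 alone was called after adjustment over all probe sets (-0.51, adjusted p = 0.037).

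Among the receptors, Cdon, a co-receptor that binds Shh together with Ptch1, came closest to the threshold. It was at 7.73, 7.67 and 7.63 with Sox3 and at 7.94, 7.85 and 7.90 in control cells. The groups were apart, with within-group SDs of 0.05 and 0.04. The log2 difference was -0.22 ± 0.05 (SE), 1.16-fold lower, and did not pass (limma adjusted p = 0.055). It passed when probe sets under the median signal were left out (limma adjusted p = 0.049) and with array weights (-0.20, limma adjusted p = 0.023), and over the alternatives the adjusted p ran from 0.023 to 0.153. Boc, the related co-receptor, was at 7.49, 7.47 and 7.40 against 7.51, 7.56 and 7.63. Its arrays did not overlap, though the nearest were at 7.49 and 7.51, and the difference of -0.11 ± 0.05 (SE) did not pass (limma adjusted p = 0.25).

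Ptch1, the receptor and a target gene of the pathway, was at 6.49, 6.51 and 6.55 with Sox3 and at 6.52, 6.51 and 6.39 in control cells. The groups overlapped and the low value was that of control replicate 3. The log2 difference was 0.04 ± 0.05 (SE, limma adjusted p = 0.66), and without that array it was -0.0013. The 95% interval of the fold, 0.945 to 1.12, does not reach a change as large as that estimated for Gli2, on the scale of these values. RMA is known to compress changes of dim genes, and the mean signal of Ptch1 lay at percentile 40.1 of all genes.

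Smo, which passes the signal across the membrane, was at 9.98, 9.99 and 10.11 with Sox3 and at 9.71, 10.13 and 9.78 in control cells. Control replicate 2 stood above both other control arrays and above every Sox3 array. The log2 difference was 0.15 ± 0.11 (SE, limma adjusted p = 0.41), and the control SD of 0.23 was the largest among the 9 genes. Without control replicate 2 the difference was 0.28 (limma adjusted p = 0.094), and with array weights it was -0.01.

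The ligand gene Shh was at 6.70, 6.63 and 6.76 with Sox3 and at 6.78, 6.69 and 6.56 in control cells. The values overlapped throughout, with a log2 difference of 0.02 ± 0.07 (SE, limma adjusted p = 0.84) and a 95% interval of 0.913 to 1.13 on the fold scale. Its sign was not stable: it was -0.01 under cyclic loess and -0.03 without control replicate 3. Hhip, which binds hedgehog ligands at the cell surface and limits their reach, was at 7.15, 7.11 and 7.16 against 6.99, 7.15 and 7.23. The Sox3 arrays lay within the range of the control arrays, and the difference was 0.02 ± 0.07 (SE, limma adjusted p = 0.89).

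**Figure D3:**
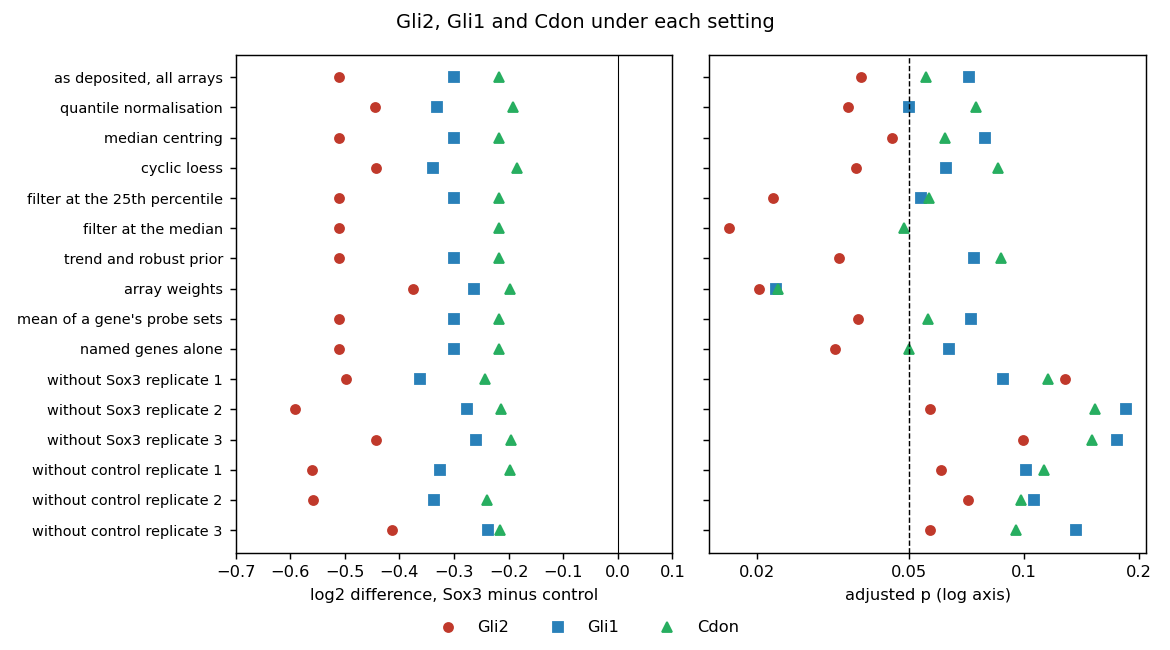
Log2 difference (left) and adjusted p (right, log axis, dashed line at 0.05) of Gli2, Gli1 and Cdon under the processing alternatives named on the axis and with each array left out. The fit with the replicate number as a block is not shown. Gli1 has no point where genes under the median signal were removed. All differences shown are below 0, and the Gli2 points move right of the line in each setting that leaves out 1 array (adjusted p 0.057 to 0.128).

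Among the genes whose profile over the 6 arrays was most like that of Gli2 were Zfp697 and Cd24a, by the root mean square difference of log2 values after each gene's own mean was subtracted. That distance was 0.04 and 0.05, while the Gli2 profile itself spread by 0.29 about its mean. For Gli1, which spread by 0.17, the nearest were Serf1, Gtf2a1l and Cul5, at 0.03, 0.03 and 0.04. For Ptch1 they were Snurf, Tmem215 and Slamf6, each at 0.01, beside a spread of 0.05 that leaves little profile to match. Over 6 arrays such closeness among 15302 genes is a description.

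The rest of the pathway was read from 6 lists of 105 genes, of which 97 were measured and the others were not analysed here. Of the 97, 4 were called higher and 11 lower, or 15.5%, beside 3.94% of all genes in either direction. The median log2 difference of the 97 was -0.06. The lists were drawn up with some of these results known, so that this share is no independent support for a change of the pathway.

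At the cell surface, the called glypican genes, Gpc4 and Gpc3, moved in opposite directions. Gpc4, a glypican that modulates growth factor signals, was at 10.59, 10.70 and 10.52 with Sox3 and at 9.69, 9.83 and 9.88 in control cells. That was 1.74-fold higher (0.80 ± 0.07 SE on the log2 scale, limma adjusted p = 0.00255), and the call held with any 1 array left out. Gpc3, a glypican that binds hedgehog ligands and limits the pathway in mice, was at 10.66, 10.74 and 10.89 against 11.15, 11.25 and 11.35. It was 1.40-fold lower (limma adjusted p = 0.016), and leaving out Sox3 replicate 1, Sox3 replicate 2 or control replicate 2 ended that call (highest limma adjusted p = 0.072). Of the 5 reception genes measured, 1 rose, 1 fell and 3 did not pass, where 1.27% of all genes were called higher and 2.67% lower. The 3 were the co-receptor gene Gas1 (-0.19 ± 0.09), the glypican gene Gpc6 (-0.28 ± 0.08) and Lrp2 (0.16 ± 0.14). Their limma adjusted p was 0.25, 0.11 and 0.50 (± is SE). They were named after their values were seen. All Sox3 arrays were below all control arrays for Gpc6, while the groups overlapped for Gas1 and Lrp2. None of 6 genes for ligands and their release passed in limma's test. An unadjusted limma p under 0.05 was found for 23.8% of all genes and for 2 of these 6. These were Ihh, another hedgehog ligand gene, at -0.12 ± 0.04, and Disp1, which encodes the protein that releases the ligand, at -0.14 ± 0.06 (SE, limma adjusted p = 0.17 and 0.22).

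Between Smo and the Gli factors, 4 of 29 genes fell and 0 rose, with a median log2 difference of -0.09. Among all genes, 2.67% were called lower and 1.27% higher. Over all genes, the medians in the 4 brightest deciles of signal ran from -0.08 to -0.05. Both beta-arrestin genes, whose products bind activated Smo and other receptors, were among the 4 that fell. Arrb1 was at 6.56, 6.60 and 6.56 with Sox3 and at 6.92, 7.09 and 7.31 in control cells, 1.45-fold lower (limma adjusted p = 0.023). Arrb2 was at 8.07, 8.08 and 8.07 against 8.48, 8.36 and 8.41, 1.27-fold lower (limma adjusted p = 0.012). The others were Cul3, a ubiquitin ligase scaffold that acts with Spop on Gli proteins, 1.29-fold lower, and Gnas, which encodes the stimulatory G protein alpha subunit upstream of protein kinase A, 1.17-fold lower (limma adjusted p = 0.044 for both). Sufu, the protein that holds Gli factors in the cytoplasm, gave a difference of 0.04 ± 0.06, and Spop -0.09 ± 0.07 (SE, limma adjusted p = 0.71 and 0.47; both chosen after their values were seen). With 1 array left out, the Arrb1 call was lost without any Sox3 array or control replicate 2, and that of Arrb2 without Sox3 replicate 1 or 2 (highest limma adjusted p 0.089 and 0.060). Those of Cul3 and Gnas were lost in all 6 such fits (up to 0.105 and 0.128), and also after quantile normalisation and cyclic loess (up to 0.111 and 0.196).

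Of 30 genes for transport into and out of the primary cilium, where Smo and Gli proteins act, 1 rose and 2 fell. The shares over all genes were 1.27% called higher and 2.67% lower. Each of the 3 called cilium genes encodes a subunit of the IFT-A complex, which carries cargo back along the cilium. That grouping was seen after the values were known. Ift122 was at 7.72, 7.74 and 7.84 with Sox3 and at 8.13, 8.21 and 8.26 in control cells, 1.35-fold lower (limma adjusted p = 0.00907). Ift140 was at 9.24, 9.31 and 9.35 against 9.57, 9.61 and 9.66, 1.24-fold lower (limma adjusted p = 0.021). Wdr35 went the other way, at 9.14, 9.24 and 9.16 against 8.59, 8.76 and 8.82, 1.37-fold higher (limma adjusted p = 0.014). Further subunits of that complex in the list, Wdr19 at 0.03 and Ttc21b at -0.12 on the log2 scale, did not pass (limma adjusted p = 0.84 and 0.18). The median of the whole list was -0.08. Leaving out Sox3 replicate 2 ended all 3 calls, that of Ift122 narrowly (limma adjusted p = 0.05001). Leaving out Sox3 replicate 1 ended those of Wdr35 and Ift140, and leaving out control replicate 2 that of Ift140 (highest limma adjusted p 0.066 for Wdr35 and 0.088 for Ift140).

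Genes that hedgehog signalling raises elsewhere did not move one way: of 19 measured, 1 rose, 3 fell and 15 did not pass, with a median log2 difference of 0.04. Beside this, 1.27% of all genes were called higher and 2.67% lower. Olig2, a ventral progenitor factor, was at 6.27, 6.24 and 6.29 with Sox3 and at 5.42, 5.61 and 5.42 in control cells. Rab34, a small GTPase of cilium formation and a Gli target in the mouse, was at 9.19, 9.21 and 9.33 against 9.60, 9.64 and 9.80, 1.35-fold lower (limma adjusted p = 0.017). Foxa2, listed here as a floor plate marker, was at 8.33, 8.46 and 8.58 against 8.80, 9.09 and 9.21. The cyclin gene Ccnd1 was at 8.29, 8.48 and 8.36 against 8.97, 8.88 and 8.99. Of 8 patterning genes that Shh lowers, Dbx1, a factor of intermediate progenitors, was 1.30-fold higher and Irx3 1.71-fold lower (limma adjusted p = 0.040 and 0.00859). Olig2, Ccnd1 and Irx3 kept their calls with any 1 array left out. Rab34 lost it where Sox3 replicate 1, Sox3 replicate 2 or control replicate 2 was left out (highest limma adjusted p 0.078). Foxa2 and Dbx1 held it in 1 such fit, where control replicate 1 was left out (highest limma adjusted p 0.116 and 0.121).

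**Figure D4:**
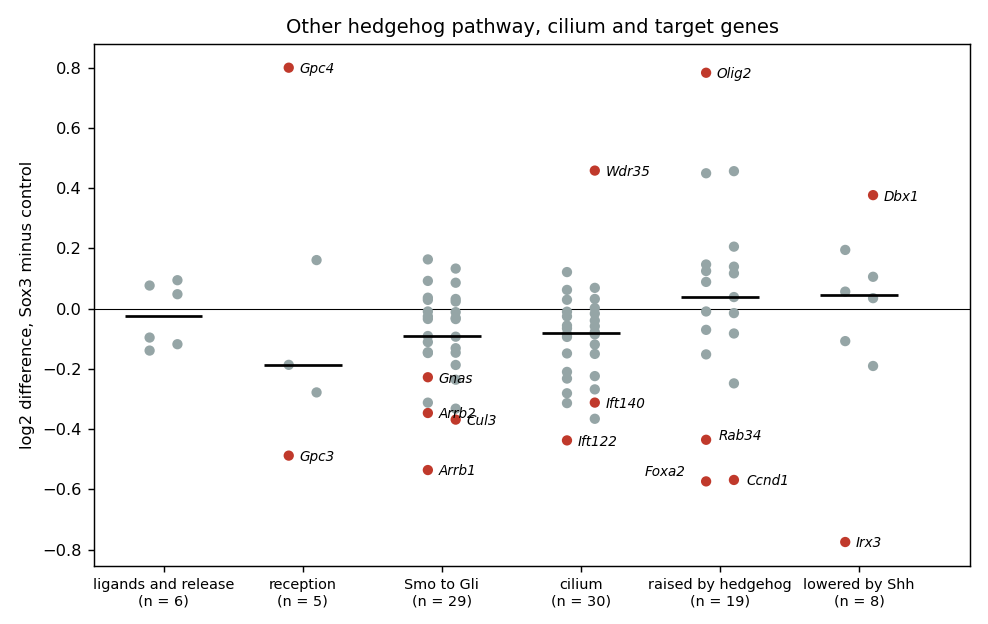
Log2 difference, Sox3 minus control, of each measured gene in 6 lists around the hedgehog pathway (list sizes under the axis). Red points passed at an adjusted p under 0.05 and are named, grey points did not, and black bars are list medians. Called genes lie on both sides of 0 in 4 lists, on the lower side alone in the list from Smo to Gli (4 of 29), and in none of the 6 ligand genes. Among all genes, 2.67% were called lower and 1.27% higher.

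Levels of marker lists for other cells were set beside these results. For floor plate and notochord, the cells that make Shh, 1 of 8 genes passed (Foxa2, lower), and the list's mean log2 signal was 6.43 to 6.52 on the Sox3 arrays and 6.57 on each control array. For neurons 0 of 7 passed in limma's test (unadjusted p under 0.05 for 2), with list means of 6.49 to 6.53 and 6.59 to 6.63. On these list means the Sox3 arrays lay below the control arrays in both lists. The median differences of these lists were -0.01 each. The largest differences of single members were those of Foxa2 (-0.57) and Spon1 (-0.45) in the first and Tubb3 (-0.51) and Stmn2 (-0.22) in the second. Spon1 overlapped between the groups, and the rest of the first list ran from -0.07 (Ntn1) to 0.12 (T). The Sox3 arrays lay wholly below for 1 of the 8 and 3 of the 7 genes, a pattern found in 18.3% of all genes. Over all genes, 2.67% were called lower and 23.8% had an unadjusted limma p under 0.05. The part of floor plate cells, neurons, endoderm, mesoderm or other cells in the Gli2 difference was not tested. The means of the other lists overlapped between the groups: 10.6 to 10.7 against 10.6 to 10.8 for pluripotent cells (0 of 6 called by limma, unadjusted p under 0.05 for 2), 6.95 to 7.14 against 7.04 to 7.24 for endoderm (3 of 9 lower) and 6.98 to 7.04 against 7.0 to 7.12 for mesoderm (2 of 8 lower). For neural progenitors they were 7.93 to 8.13 against 7.94 to 8.0 (1 of 9 lower). No marker is at 0, since RMA gives every probe set a positive value.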

How the data were processed

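The deposited table holds log2 values. The authors ran RMA through Affymetrix Power Tools, according to the submitters' processing notes. This method subtracts background, equalises the distributions of the arrays by quantiles and sums up the probes of each set as 1 log2 value. The deposited values still differed in spread between the groups. Their interquartile range was 2.89 to 2.98 on the Sox3 arrays and 3.00 to 3.17 on the control arrays. After quantile normalisation of these values the Gli2 difference was -0.44 (limma adjusted p = 0.035). The array type is not given in the sources used here. Of 21940 probe sets, 64 array controls were left out. The other 21876, named by RefSeq accession, were matched without versions to a RefSeq gene table (GRCm38.p6), and 17123 gave 1 symbol. For each gene the row of highest mean was used.

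The comparison used limma 3.58.1 (R 4.3.3) on all 21876 probe sets (lmFit, eBayes, two-sided, no block, no filter). Differences are Sox3 minus control, intervals are at 95%, and p-values were adjusted over all of these by Benjamini-Hochberg, with a threshold of 0.05. The procedure was tested on simulated data. Alternatives were other scalings of the values, filters at the 25th percentile and the median of signal, another variance model, array weights, the replicate block, other rows per gene, a threshold of 0.01 and each array left out. The precision is set by 3 arrays per group, since depth does not apply to arrays. The labels call the samples biological replicates without naming cultures or ES cell clones. The p-values therefore set a difference against the spread between these samples. Whether that covers the spread between clones is not known.

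The 9 genes and the gene lists were chosen with earlier results of these data known. Beside the 9, up to 4 called genes per list by smallest p are named, or the 2 largest differences where none was called. For Ptch1, Gli1 and each called member the 3 nearest profiles are named, except 1 that is not reported here.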

Additional observations from a re-analysis of the deposited data

How the results depend on the processing

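No alternative turned the sign of Gli1, Gli2, Boc or Cdon, or of the 17 other pathway genes named by rule. The number of the 9 genes called lower was 1; it was 2 without probe sets under the median signal, 3 with array weights, and 0 with an adjusted p threshold of 0.01, with the replicate block and in every fit with 1 array left out. The same-numbered arrays deviated together at 0.29, -0.21 and 0.09, so the numbers were not taken as pairs; with the replicate block Gli2 stayed at -0.51 (limma adjusted p = 0.058), and Cul3 and Gnas had adjusted p = 0.060 and 0.072. Differences of members that were not called changed sign: Shh to -0.00748 under cyclic loess and -0.0236 with array weights, Smo to -0.0119 with array weights, and Gli3 to 0.0248 after quantile normalisation and 0.0293 under cyclic loess. With 1 array left out, Shh ran from -0.0349 (without control replicate 3) to 0.0747, Ptch1 from -0.0013 (without control replicate 3) to 0.0632 and Hhip from -0.0491 (without control replicate 1) to 0.0678. Over all genes, 195 were higher and 408 lower; these were 297 higher after quantile normalisation, 607 and 976 with array weights, 51 and 55 at the 0.01 threshold, and 58 to 147 and 66 to 215 with 1 array left out. Of the 97 pathway genes, 4 were higher and 11 lower; at the 0.01 threshold these were 2 and 3, and with 1 array left out 2 to 5 and 2 to 9. Gnas lost its call when its probe sets were averaged (-0.17, adjusted p = 0.092). The causes were not tested. RMA is known to compress changes of dim genes; whether it did so for Shh, Ptch1 and Gli1 (percentiles 40.1 to 43.3 of signal) was not tested.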

Other observations

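A few pathway genes lay near the threshold with groups that did not overlap; they were chosen after their values were seen. Nkx2-9, a ventral homeobox factor that hedgehog signalling raises, was at 8.95, 8.74 and 8.68 with Sox3 and at 8.51, 8.36 and 8.14 in control cells (log2 difference 0.46 ± 0.10 SE, limma adjusted p = 0.054). Prdm1, a zinc finger repressor, was at 7.88, 8.14 and 8.15 against 7.33, 7.76 and 7.73 (0.45 ± 0.12 SE, limma adjusted p = 0.086). Ccnd2, a D-type cyclin gene, was at 10.88, 10.91 and 10.83 against 11.11, 11.04 and 11.21 (-0.25 ± 0.06 SE, limma adjusted p = 0.054). Evc2, which encodes a partner of Smo at the base of the cilium, was at 7.91, 7.88 and 7.82 against 8.12, 8.08 and 8.35 (-0.31 ± 0.08 SE, limma adjusted p = 0.067). Kif3a, a motor subunit that builds the cilium, was at 8.41, 8.50 and 8.40 against 8.66, 8.58 and 8.74 (-0.22 ± 0.06 SE, limma adjusted p = 0.078). Pax6, a patterning gene that Shh lowers, was at 5.84, 5.85 and 5.90 against 6.06, 6.09 and 6.01. Its log2 difference was -0.19 ± 0.05 (SE, limma adjusted p = 0.068). None of these genes passed.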
